A study of Mus musculus with 9 samples.

Results

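The Eph receptors, ephrins, Slits, Robos, netrins, netrin receptors and Srgap proteins steer growing axons, and their genes were taken from the expression table by symbol. Of 43 annotated gene names that the rule covers, 38 were among the 14670 genes of the table, and *Epha1*, *Epha10*, *Robo3*, *Ntn3* and *Ntn5* were not analysed here. The 38 genes were 7 EphA and 5 EphB receptors, 5 ephrin-A and 3 ephrin-B ligands, 3 Slits, 3 Robos, 4 netrins, 5 netrin receptors and 3 Srgap genes. All 38 passed the filter on low values.

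RNA was sequenced from microdissected cerebral cortex of mouse embryos at E16.5, in 3 libraries each from control, *Fzd3* mutant and *Celsr3* mutant animals. *Fzd3* and *Celsr3* encode a Frizzled receptor and an atypical cadherin of the core planar cell polarity group, both needed for the growth of major forebrain axon tracts. The labels give the genotypes as +/+ for controls, *Fzd3* -/- and *Celsr3* -/-, whereas the study's methods describe controls as littermates that were wild-type or heterozygous, on a mixed background of C57Bl/6 and CD1. The *Fzd3* allele lacks exon 3. The labels name Trizol for the RNA, the methods a column kit, and the *Celsr3* libraries are numbered 1, 2 and 4. The methods give 3 cortical samples per genotype for the sequencing, and at least 3 animals for any animal experiment, without saying whether a sample held tissue of 1 embryo. The p-values measure the spread between these libraries. From which mutant line or litters the 3 controls came is not given in the sources used here. Differences by genotype therefore cannot be told apart from differences by line, litter or dissection. Log2 values of library pairs correlated at 0.992 to 0.997 within a genotype and at 0.989 to 0.993 between *Celsr3* mutants and controls. Pairs of a *Fzd3* mutant with another genotype gave 0.975 to 0.986. Depth, as the value steps of each library give it, was 39857305 to 69600589 reads per library on the listed genes. A level of 3 reads corresponded to 0.0427 to 0.0752 CPM (counts scaled to library size), for counting error only.

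In this tissue these families work as ligand and receptor pairs. Ephrin-A ligands are anchored by a lipid and ephrin-B ligands span the membrane; they bind Eph receptor tyrosine kinases on neighbouring cells, mostly repel growth cones, and send signals into both cells. Secreted Slits repel axons through Robo receptors, which recruit Srgap proteins to the actin cytoskeleton, and netrin-1 attracts axons through Dcc or repels them through Unc5 receptors.

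*Celsr3* mRNA, the label check for 1 mutant, was 196, 243 and 214 CPM in controls, 253, 213 and 255 CPM in *Fzd3* mutants and 122, 139 and 118 CPM in *Celsr3* mutants. The *Celsr3* mutant libraries lay below all others. *Fzd3* mRNA was 58.0, 67.7 and 46.9 CPM in controls, 46.5, 39.8 and 59.6 CPM in *Fzd3* mutants and 52.1, 61.1 and 54.8 CPM in *Celsr3* mutants. Those groups overlapped, and the table holds 1 value for the whole gene, so the *Fzd3* labels could not be checked in this way. Among markers of cortical identity, 8 of 8 were in the table, with a summed level of 2656, 2804 and 2512 CPM in controls, 2598, 2589 and 2634 CPM in *Fzd3* mutants and 2754, 2845 and 2766 CPM in *Celsr3* mutants, and 0 of 6 *Hox* genes of hindbrain and spinal cord were listed.

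The first comparison asked which guidance genes differ between *Fzd3* mutant and control cortex. Differences are log2 fold changes of CPM + 0.5 from limma, with p-values adjusted over all 14670 genes and a threshold of 0.05; such fold changes understate the change of low genes. Of the 38 genes, 15 passed (39.5%), against 29.8% of all genes. No test compared these shares, and nothing particular to the 38 genes is read from them. There were 8 higher genes, where 15% of all genes were higher, and 7 lower genes, where 14.8% of all genes were lower. The higher genes were *Epha6*, *Unc5c*, *Epha8*, *Efna5*, *Efnb3*, *Ephb1*, *Srgap2* and *Ephb6*, and the lower genes were *Efnb1*, *Slit1*, *Ephb4*, *Epha4*, *Ntn4*, *Epha5* and *Efnb2*. The median log2 fold change over the 38 genes was 0.07, and that over all genes was −0.00056. In size the median change was 0.21 for the 38 genes and 0.14 for all genes.

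In *Celsr3* mutants against controls, limma called 0 of the 38 genes, against 0.307% of all genes (45 of 14670). At an unadjusted p under 0.05 there were 4 of the 38, *Slit3*, *Ntng1*, *Ntn1* and *Robo2*, against 5.45% of all genes. The adjusted p-values of the 38 genes lay between 0.834 and 1.00, and the log2 fold changes between −0.63 for *Slit3* and 0.15 for *Efna3*. A p-value above the threshold does not show that a gene was equal in *Celsr3* mutants and controls. The comparisons of both mutants share the 3 control libraries.

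In the direct comparison of *Fzd3* with *Celsr3* mutants, 18 of the 38 genes passed, against 29.6% of all genes. Of these, 13 were higher in *Fzd3* mutants, where 15.3% of all genes were higher, and 5 were lower, where 14.3% of all genes were lower. This comparison and that with controls shared 13 genes, or 13 of 15 and 13 of 18, and use the same 3 *Fzd3* mutant libraries. The overlap over all genes is not given here, so nothing particular to the 38 genes is read from these shares. A further 5 genes, *Slit3*, *Ntng1*, *Ntn1*, *Unc5a* and *Srgap3*, passed only here, while *Efnb2* and *Ntn4* passed only against controls. Between the mutants limma gave log2 −0.11 (adjusted p = 0.0699) for *Efnb2* and log2 −0.22 (adjusted p = 0.0727) for *Ntn4*, in the same direction as against controls. With a replicate block in the fit, 7 of the 38 genes and 14.3% of all genes passed between the mutants. The block groups libraries of equal number. That equal numbers share a litter or batch is not stated in the sources used here.

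**Figure D1:**
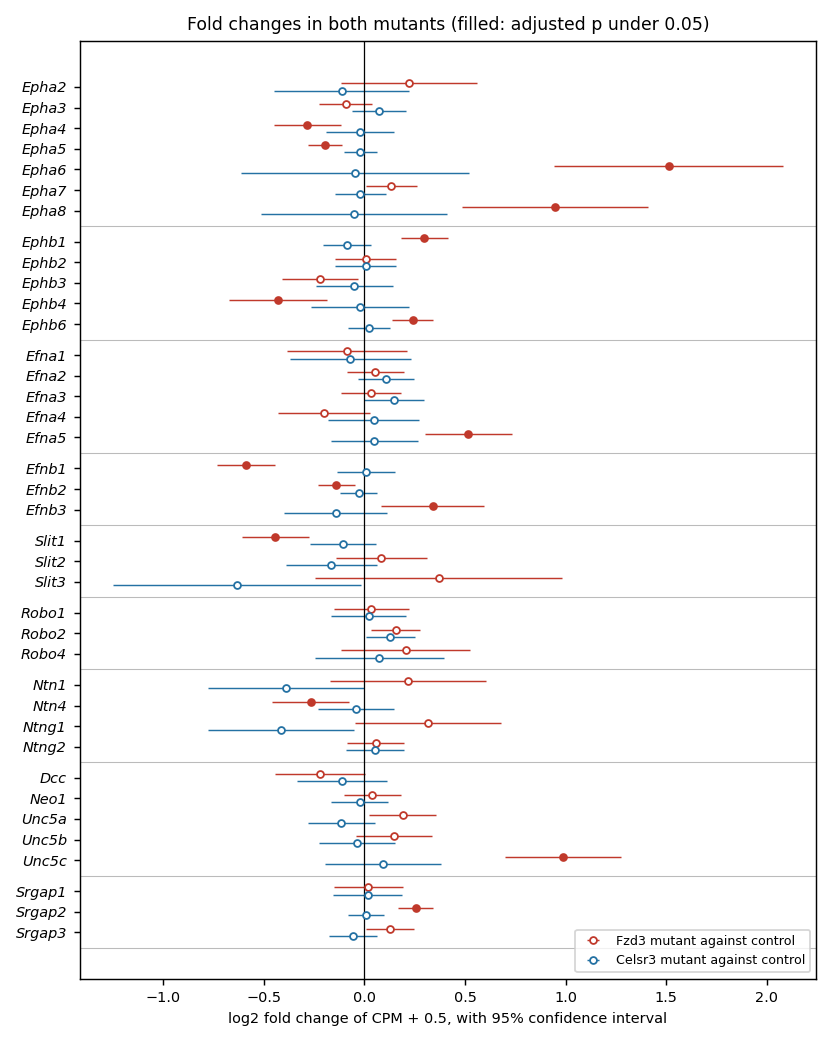
Log2 fold change of CPM + 0.5 (horizontal axis) for each of the 38 genes, grouped by family, in *Fzd3* mutants (red) and *Celsr3* mutants (blue) against the same 3 controls; bars are 95% confidence intervals and filled points have an adjusted p under 0.05. There are 15 filled red points and 0 filled blue points.

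Markers of progenitors and other cells also passed the threshold in *Fzd3* mutants against controls. Of 83 distinct marker genes, 37 passed there in either direction, against 29.8% of all genes. Of 5 intermediate progenitor markers, all in the table, 5 were lower in *Fzd3* mutants. Their summed level was 391, 415 and 346 CPM in controls, 219.8, 239.6 and 275 CPM in *Fzd3* mutants and 381, 434 and 440.1 CPM in *Celsr3* mutants, and *Eomes* was the highest of them per kb of exon in controls. Of 9 radial glia markers, all in the table, 7 were lower and 0 higher, with a sum of 1417, 1471 and 1435 CPM in controls, 1085, 1148 and 1037 CPM in *Fzd3* mutants and 1289, 1326 and 1409.7 CPM in *Celsr3* mutants and with *Fabp7* highest. In both lists every *Fzd3* mutant sum was below every other library. In bulk tissue, fewer cells of a type and less RNA per cell cannot be told apart, and the part of cell composition in the differences of guidance genes was not tested.

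Of 4 oligodendrocyte precursor markers, all in the table, 3 were higher in *Fzd3* mutants. They summed to 24.3, 21.6 and 32.6 CPM in controls, 60.9, 55.1 and 31.5 CPM in *Fzd3* mutants and 31.0, 21.6 and 26.7 CPM in *Celsr3* mutants, with *Olig1* highest per kb. *Fzd3* mutant replicate 3 lay within the control range of this sum. The count of 3 became 1 without *Fzd3* mutant replicate 1, *Fzd3* mutant replicate 2, control replicate 1 or control replicate 2, and without a variance trend or with a robust fit. Of 10 endothelial markers, 9 were in the table (*Slco1a4* was not) and 3 were higher, with a sum of 116, 118 and 119.9 CPM in controls, 171, 161 and 151 CPM in *Fzd3* mutants and 127, 112 and 166 CPM in *Celsr3* mutants and with *Cldn5* highest. All 3 *Fzd3* mutants and *Celsr3* mutant replicate 4 were high. The higher genes were *Kdr*, *Flt1* and *Cldn5*. Fold changes in *Fzd3* mutants were log2 0.10 (adjusted p = 0.535) for *Pecam1*, 0.05 (adjusted p = 0.832) for *Cdh5* and 0.10 (adjusted p = 0.580) for *Tie1*. *Tek*, *Esam* and *Emcn* did not pass either, at log2 0.37, 0.45 and 0.41. The count became 5 without *Celsr3* mutant replicate 4, and with only the libraries compared in the fit or with a replicate block.

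Of 9 projection neuron markers, 8 were in the table (*Tubb3* was not), 1 was higher and 5 lower in *Fzd3* mutants. They summed to 4502, 4646 and 4294 CPM in controls, 4549, 4409.8 and 4581 CPM in *Fzd3* mutants and 4624, 4656 and 4444 CPM in *Celsr3* mutants, with *Neurod6* highest per kb, a gene that the cortical identity list also holds and is led by. Of the 8 cortical identity markers, 1 was higher and 6 lower. The sums of both lists overlapped between *Fzd3* mutants and controls.

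Of 9 interneuron and ganglionic eminence markers, 7 were in the table (*Nkx2-1* and *Gsx2* were not) and limma called 0 against controls, with 0 at an unadjusted p under 0.05. They gave 223, 225 and 247 CPM in controls, 266, 248 and 211 CPM in *Fzd3* mutants and 225, 193 and 179.6 CPM in *Celsr3* mutants, with *Dlx1* highest per kb. The count became 1 without *Fzd3* mutant replicate 3. Of 10 striatal markers, 6 were in the table (*Isl1*, *Drd2*, *Tac1* and *Penk* were not), 2 were higher and 1 lower. They gave 168, 167 and 157 CPM in controls, 205, 197 and 199 CPM in *Fzd3* mutants and 176, 164 and 161 CPM in *Celsr3* mutants, with *Ppp1r1b* highest per kb among the 5 with a known length. The count of 3 became 1 without *Fzd3* mutant replicate 1, *Fzd3* mutant replicate 2, *Fzd3* mutant replicate 3, control replicate 2 or control replicate 3, and without a variance trend. Of 6 thalamic markers, 5 were in the table (*Gbx2* was not), 1 was higher and 2 lower. They gave 66.5, 63.4 and 70.9 CPM in controls, 66.7, 65.5 and 66.4 CPM in *Fzd3* mutants and 59.6, 64.3 and 62.9 CPM in *Celsr3* mutants, with *Slc17a6* highest. The count of 3 became 1 without *Fzd3* mutant replicate 2, and with only genes of at least 5 CPM tested. The striatal sums of all 3 *Fzd3* mutants were above every other library, a rise carried by *Foxp1*, at 88.0 ± 4.72 CPM in controls and 126 ± 2.01 CPM in *Fzd3* mutants, while *Ppp1r1b* went from 32.6 ± 1.83 to 29.0 ± 1.86 CPM. The thalamic sums of *Fzd3* mutants lay within the control range, with members going both ways. *Prox1* went from 5.96 ± 0.0582 to 12.5 ± 2.20 CPM, and *Slc17a6* from 50.5 ± 3.87 to 45.6 ± 2.23 CPM.

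Microglia and macrophage markers were all in the table, and 2 of 7 were higher in *Fzd3* mutants. They summed to 29.5, 32.4 and 31.9 CPM in controls, 50.8, 48.4 and 37.9 CPM in *Fzd3* mutants and 34.3, 35.5 and 51.8 CPM in *Celsr3* mutants, with *C1qb* highest per kb, and the count became 1 without *Fzd3* mutant replicate 1 or control replicate 2, and with only genes of at least 5 CPM tested. Of 6 mural cell markers, 5 were in the table (*Acta2* was not) and 1 was higher. They gave 81.8, 80.2 and 82.0 CPM in controls, 99.5, 99.0 and 90.0 CPM in *Fzd3* mutants and 88.0, 81.2 and 96.9 CPM in *Celsr3* mutants, with *Rgs5* highest, and the count became 0 without control replicate 2 and 2 with libraries rescaled to the same total or with a robust fit and 3 without *Fzd3* mutant replicate 3. The *Fzd3* mutant sums of both lists were above all controls.

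Of 10 red blood cell markers, 8 were in the table (*Hbb-b1* and *Hbb-b2* were not) and 1 was lower. They gave 1767, 1919.6 and 2041 CPM in controls, 2288, 2445 and 1570.2 CPM in *Fzd3* mutants and 2418, 1585 and 2539 CPM in *Celsr3* mutants, with *Hba-a1* highest per kb, and the count became 0 without *Fzd3* mutant replicate 1, *Fzd3* mutant replicate 2, control replicate 1 or control replicate 2, and with only genes of at least 5 CPM tested or without a variance trend. Of 8 meningeal and fibroblast markers, 6 were in the table (*Lum* and *Slc6a13* were not) and limma called 0, with 1 at an unadjusted p under 0.05. They gave 12.8, 17.1 and 11.1 CPM in controls, 22.0, 20.1 and 15.3 CPM in *Fzd3* mutants and 16.4, 16.4 and 179 CPM in *Celsr3* mutants, with *Col3a1* highest. *Celsr3* mutant replicate 4 stood apart from the other 8 libraries. The count of 0 became 2 without *Celsr3* mutant replicate 4, and with only the libraries compared in the fit or with a replicate block. In the 14 lists no listed gene was at 0 in any library. In *Celsr3* mutants against controls, limma called 0 of 83 distinct genes, against 0.307% of all genes. At an unadjusted p under 0.05 there were 15 of the 83, against 5.45% of all genes. The part of these cells in the differences of guidance genes was not tested.

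**Figure D2:**
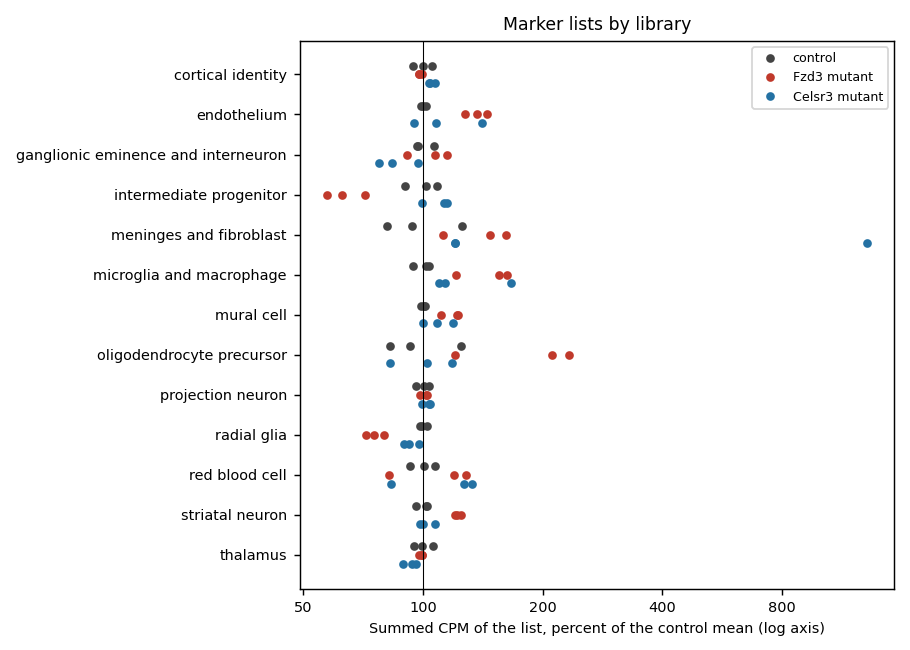
Summed CPM of each marker list in each library, as a percentage of the control mean (log axis), with controls in grey, *Fzd3* mutants in red and *Celsr3* mutants in blue. Intermediate progenitor and radial glia sums of the *Fzd3* mutants lie below all controls, and 1 *Celsr3* mutant library is far to the right for meningeal and fibroblast genes.

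Among EphA receptors, levels per kb of exon in controls were led by *Epha4* at 28.9 ± 2.85 CPM per kb (mean ± s.d., n = 3 libraries) and *Epha3* at 26.2 ± 2.0 CPM per kb, which did not differ beyond their spread. *Epha5* followed at 17.6 ± 0.723 and *Epha7* at 8.98 ± 0.618 CPM per kb, while *Epha8*, *Epha6* and *Epha2*, whose spreads overlapped in that order, lay at 0.441 ± 0.0855, 0.306 ± 0.168 and 0.267 ± 0.0397 CPM per kb. The receptors that rose were from this low group and those that fell from the abundant group. With the longest annotated transcript as the length, *Epha5* came first in controls.

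*Epha6* was 0.983, 1.23 and 2.63 CPM in controls, 6.87, 4.86 and 4.22 CPM in *Fzd3* mutants and 1.67, 1.34 and 1.32 CPM in *Celsr3* mutants. All 3 *Fzd3* mutant libraries were above the other 6, and control replicate 3 was high among controls. The difference was log2 1.51 ± 0.26 (SE, adjusted p = 0.00153) against controls and log2 1.56 ± 0.26 (SE, adjusted p = 0.00145) against *Celsr3* mutants. *Epha8* was 2.02, 1.71 and 2.51 CPM in controls, 5.16, 5.44 and 3.07 CPM in *Fzd3* mutants and 2.50, 1.67 and 1.81 CPM in *Celsr3* mutants. The *Fzd3* mutants were again above all other libraries, with replicate 3 nearest to them, and the difference from controls was log2 0.95 ± 0.21 (SE, adjusted p = 0.00663).

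*Epha4*, a receptor for both ephrin classes, was 243, 249.7 and 207 CPM in controls, 183, 193 and 197 CPM in *Fzd3* mutants and 207, 235 and 246 CPM in *Celsr3* mutants. *Fzd3* mutants were below the other 6 libraries, with control replicate 3 and *Celsr3* mutant replicate 1 nearest to them. The fold change was log2 −0.28 ± 0.08 (SE, adjusted p = 0.0174) against controls. Its adjusted p became 0.0696 without *Fzd3* mutant replicate 1, 0.0653 without control replicate 1 and 0.0683 without control replicate 2, and ran from 0.00304 to 0.0696 over 20 alternatives (log2 −0.37 to −0.23). Between the mutants it was log2 −0.26 (adjusted p = 0.0254), and the adjusted p became 0.0938 without *Fzd3* mutant replicate 1, 0.0600 without *Fzd3* mutant replicate 2, 0.0808 without *Celsr3* mutant replicate 2, 0.0966 without *Celsr3* mutant replicate 4, 0.179 with a replicate block and 0.0636 without a variance trend, within a range from 0.00893 to 0.179 over 20 alternatives. *Epha5* was 287, 309 and 289.8 CPM in controls, 256, 256 and 260.1 CPM in *Fzd3* mutants and 295, 288 and 291 CPM in *Celsr3* mutants. The 3 *Fzd3* mutants lay close together below all others, with log2 −0.20 ± 0.04 (SE, adjusted p = 0.00310) against controls.

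EphB receptors bind mainly ephrin-B ligands. In controls *Ephb1* was at 13.9 ± 0.283, *Ephb6* at 13.0 ± 0.231 and *Ephb2* at 9.61 ± 0.784 CPM per kb, with *Ephb4* and *Ephb3* at 2.85 ± 0.150 and 1.53 ± 0.0668 CPM per kb. *Ephb1* was 98.4, 98.2 and 94.9 CPM in controls, 119.7, 116 and 123 CPM in *Fzd3* mutants and 95.9, 95.1 and 84.0 CPM in *Celsr3* mutants. *Fzd3* mutants were above the other libraries, by log2 0.30 ± 0.05 (SE, adjusted p = 0.00206) against controls. *Ephb6*, whose kinase domain is inactive, was 47.9, 49.1 and 49.6 CPM in controls, 57.6, 58.6 and 57.2 CPM in *Fzd3* mutants and 52.2, 48.8 and 48.0 CPM in *Celsr3* mutants. It was likewise higher in each *Fzd3* mutant library, by log2 0.24 ± 0.05 (SE, adjusted p = 0.00332).

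*Ephb4*, a receptor of venous endothelium, was 12.6, 14.0 and 13.0 CPM in controls, 9.36, 11.1 and 8.74 CPM in *Fzd3* mutants and 11.7, 12.5 and 15.0 CPM in *Celsr3* mutants. *Fzd3* mutants were lower than all other libraries, by log2 −0.43 ± 0.11 (SE, adjusted p = 0.0138) against controls. The summed endothelial markers given above were higher in the same 3 libraries than in controls, but only *Kdr*, *Flt1* and *Cldn5* passed. The highest *Ephb4* value was in *Celsr3* mutant replicate 4, which was also the highest of the *Celsr3* mutants for endothelial markers. The part of endothelial cells in the *Ephb4* difference was not tested. The adjusted p against controls became 0.0508 without *Fzd3* mutant replicate 1 and 0.0526 without control replicate 2, and ran from 0.00881 to 0.0526 over 20 alternatives (log2 −0.52 to −0.36). Between the mutants it was log2 −0.41 (adjusted p = 0.0176), and the adjusted p became 0.0610 without *Fzd3* mutant replicate 1, 0.0539 without *Fzd3* mutant replicate 3, 0.0708 without *Celsr3* mutant replicate 4 and 0.123 with a replicate block, and ran from 0.0131 to 0.123 over 20 alternatives (log2 −0.50 to −0.27).

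For the pair of genes with the largest rise and the pair with the largest fall, among the genes with a RefSeq start whose window held no annotated exon of the gene, the 250 bases before the RefSeq start were read from RefSeq, build GRCm38.p6, on the strand of the gene. They are shown as the start regions of the genes that changed most. Both strands were searched for the letters of a TCF/LEF site, an AP-1 site, a homeodomain site, a GC box and a TATA box, and capitals mark matches. *Epha6* (chr16:60605532-60605781, minus strand) and *Epha8* (chr4:136956817-136957066, minus strand) were the genes that rose, and *Efnb1* (chrX:99135811-99136060, plus strand) and *Ephb4* (chr5:137349859-137350108, plus strand) the genes that fell.
Epha6: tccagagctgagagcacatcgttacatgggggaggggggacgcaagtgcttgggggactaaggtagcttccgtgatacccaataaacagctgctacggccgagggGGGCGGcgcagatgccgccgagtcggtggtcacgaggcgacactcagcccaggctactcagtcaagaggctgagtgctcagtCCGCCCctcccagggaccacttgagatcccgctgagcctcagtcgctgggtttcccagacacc
Epha8: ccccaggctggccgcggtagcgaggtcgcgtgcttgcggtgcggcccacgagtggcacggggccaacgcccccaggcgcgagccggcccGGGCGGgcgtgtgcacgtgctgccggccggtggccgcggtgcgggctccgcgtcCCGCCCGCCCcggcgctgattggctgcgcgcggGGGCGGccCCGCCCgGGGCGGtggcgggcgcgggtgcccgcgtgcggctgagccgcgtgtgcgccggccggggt
Efnb1: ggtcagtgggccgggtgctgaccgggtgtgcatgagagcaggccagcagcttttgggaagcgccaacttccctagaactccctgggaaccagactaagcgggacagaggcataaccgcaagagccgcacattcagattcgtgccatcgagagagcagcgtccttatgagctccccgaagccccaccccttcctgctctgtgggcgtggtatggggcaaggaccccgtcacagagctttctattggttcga
Ephb4: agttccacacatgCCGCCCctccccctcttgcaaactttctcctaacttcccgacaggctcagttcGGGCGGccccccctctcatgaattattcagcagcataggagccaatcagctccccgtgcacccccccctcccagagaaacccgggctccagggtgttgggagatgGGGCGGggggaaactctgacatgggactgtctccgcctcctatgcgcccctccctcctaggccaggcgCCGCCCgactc
Matches to GGGCGG, the GC box, made up all matches in these 4 windows, with 2 for *Epha6*, 6 for *Epha8*, 4 for *Ephb4* and 0 for *Efnb1*, and matches of *Epha8* overlap one another. Promoters were found for 34 of the 38 genes (39 windows), of which 27 held a GC box (69.2%), against 32.7% of all 32851 windows. Of the 13 windows of genes called in *Fzd3* mutants, 10 held one. The TCF/LEF letters CTTTGAT were in 0 of the 39 windows, against 3.21% of all windows. The AP-1 letters TGANTCA, where N is any base, were also in 0, against 6.75%. The homeodomain letters TAATTA were in 2 of the 39, against 4.84%, and the TATA letters TATAAA in 3, against 12.4%. The median GC content was 65.6% in these windows and 52.4% in all windows.

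Ephrin-A genes are led per kb by *Efna3* at 11.3 ± 0.335 and *Efna2* at 10.2 ± 0.573 CPM per kb in controls, with *Efna4* at 7.54 ± 0.574, *Efna5* at 1.47 ± 0.0718 and *Efna1* at 1.22 ± 0.127. *Efna3* was 27.8, 28.3 and 26.7 CPM in controls, 30.9, 27.7 and 26.4 CPM in *Fzd3* mutants and 32.1, 29.5 and 30.2 CPM in *Celsr3* mutants. Controls and *Fzd3* mutants overlapped, and the *Celsr3* mutants lay above the controls without passing the threshold. *Efna5*, a ligand that sorts axons into maps, was 6.18, 5.62 and 5.99 CPM in controls, 8.50, 9.37 and 8.25 CPM in *Fzd3* mutants and 6.01, 6.77 and 5.71 CPM in *Celsr3* mutants. *Fzd3* mutants were above every other library, by log2 0.52 ± 0.10 (SE, adjusted p = 0.00288) against controls and log2 0.47 ± 0.10 (SE, adjusted p = 0.00503) against *Celsr3* mutants. With a replicate block the latter adjusted p was 0.0567, within a range from 0.00409 to 0.0567 over 20 alternatives. *Efna1*, *Efna3* and *Efna4* lie side by side on chromosome 3, with 10.4 kb between *Efna3* and *Efna4* and 32.8 kb between *Efna1* and *Efna3*, and passed in no comparison.

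Of the 3 ephrin-B genes, 3 passed in *Fzd3* mutants against controls, where 29.8% of all genes passed, and the calls of *Efnb2* and *Efnb3* were lost in 6 and 8 of 20 alternatives. These were the 2 calls among the 38 genes against controls that a replicate block lost. In controls *Efnb2* was at 44.1 ± 1.53, *Efnb1* at 27.1 ± 2.98 and *Efnb3* at 20.5 ± 2.74 CPM per kb. In *Fzd3* mutants *Efnb3* at 26.0 ± 3.17 CPM per kb stood above *Efnb1* at 17.9 ± 0.403.

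*Efnb1*, an ephrin of cortical progenitors, was 89.5, 105 and 85.8 CPM in controls, 62.1, 60.3 and 63.0 CPM in *Fzd3* mutants and 94.0, 92.3 and 94.5 CPM in *Celsr3* mutants. The *Fzd3* mutant values were tightly grouped and below all others, and the fold change was log2 −0.59 ± 0.07 (SE, adjusted p = 1.28e-04) against controls and log2 −0.59 ± 0.07 (SE, adjusted p = 1.51e-04) against *Celsr3* mutants. The progenitor marker sums given above were also lowest in these libraries, where 14.8% of all genes were lower than in controls. The part of progenitors in the *Efnb1* difference was not tested. *Efnb2*, found in progenitors and in arterial endothelium, was 291, 312 and 304 CPM in controls, 278, 269 and 276 CPM in *Fzd3* mutants and 309.8, 292 and 287 CPM in *Celsr3* mutants. *Fzd3* mutants lay just below the others, by log2 −0.14 ± 0.04 (SE, adjusted p = 0.0282) against controls. That call had an adjusted p from 0.0219 to 0.0982 over 20 alternatives (log2 −0.17 to −0.12), and became 0.0560 without *Fzd3* mutant replicate 1, 0.0955 without *Fzd3* mutant replicate 2, 0.0982 without control replicate 2, 0.0609 without control replicate 3, 0.0747 with a replicate block and 0.0732 without a variance trend.

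*Efnb3*, an ephrin of the midline that confines axons to 1 side, was 61.4, 59.2 and 75.3 CPM in controls, 89.4, 87.7 and 71.1 CPM in *Fzd3* mutants and 66.3, 59.6 and 51.4 CPM in *Celsr3* mutants. Controls and *Fzd3* mutants overlapped, since control replicate 3 was above *Fzd3* mutant replicate 3. The fold change was log2 0.34 ± 0.12 (SE, adjusted p = 0.0470) against controls, with an adjusted p from 0.0145 to 0.162 over 20 alternatives (log2 0.27 to 0.45). It became 0.162 without *Fzd3* mutant replicate 1, 0.145 without *Fzd3* mutant replicate 2, 0.0621 without *Celsr3* mutant replicate 2, 0.137 without control replicate 1, 0.155 without control replicate 2, 0.0617 with a replicate block, 0.0933 without a variance trend and 0.0735 with a robust fit. Against *Celsr3* mutants, whose libraries did not overlap with those of *Fzd3* mutants, it was log2 0.48 ± 0.12 (SE, adjusted p = 0.00979). That adjusted p was 0.0909 with a replicate block, within a range from 0.00404 to 0.0909 over 20 alternatives.

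**Figure D3:**
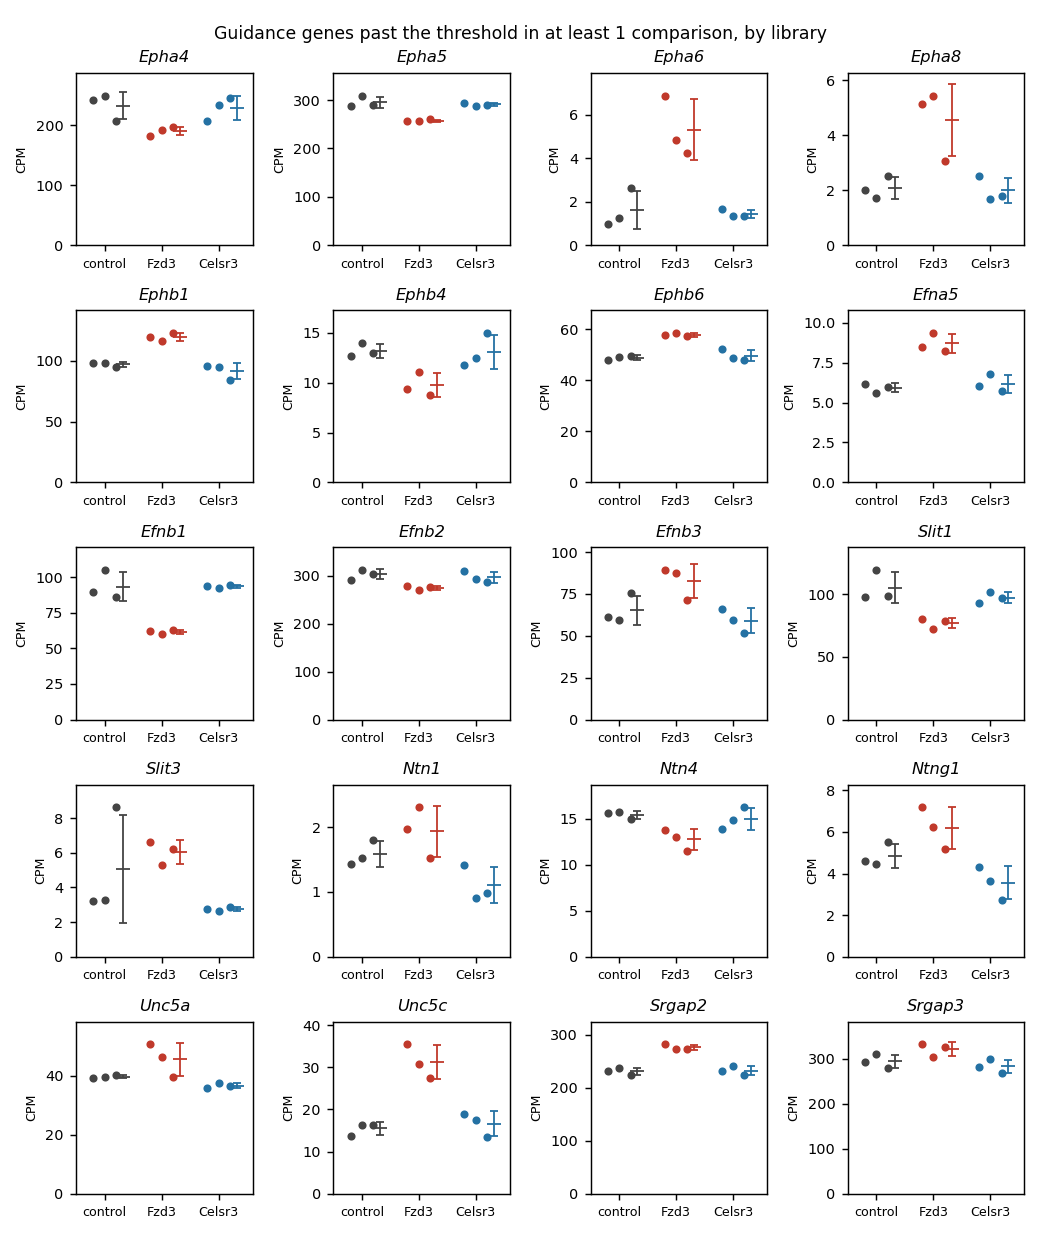
CPM (vertical axis, from 0) of the 20 genes past the threshold in at least 1 comparison, with 1 point per library, and the mean and s.d. of each genotype beside the points. The *Fzd3* mutants of *Epha6*, *Unc5c* and *Epha8* lie above the other libraries, those of *Efnb1* and *Slit1* below, and 1 control library stands apart for *Slit3*.

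Among the Slits, *Slit1* was far above the others per kb, at 17.8 ± 2.07 CPM per kb in controls against 1.05 ± 0.123 for *Slit2* and 0.833 ± 0.514 for *Slit3*. *Slit1* was 98.0, 119.5 and 98.6 CPM in controls, 80.4, 72.5 and 78.6 CPM in *Fzd3* mutants and 93.0, 102 and 97.4 CPM in *Celsr3* mutants. *Fzd3* mutants were below the other 6 libraries, by log2 −0.44 ± 0.08 (SE, adjusted p = 0.00147) against controls and log2 −0.34 ± 0.08 (SE, adjusted p = 0.00682) against *Celsr3* mutants. With a replicate block the latter adjusted p was 0.0585, within a range from 0.00121 to 0.0585 over 20 alternatives.

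*Slit3* was 3.20, 3.30 and 8.65 CPM in controls, 6.64, 5.29 and 6.20 CPM in *Fzd3* mutants and 2.76, 2.63 and 2.88 CPM in *Celsr3* mutants. Control replicate 3 stood apart from the other controls and was above every mutant library, and the *Celsr3* mutants were the lowest. The difference was log2 0.37 ± 0.28 (SE, adjusted p = 0.351) between *Fzd3* mutants and controls, log2 −0.63 ± 0.28 (SE, adjusted p = 0.904) between *Celsr3* mutants and controls, and log2 1.00 ± 0.28 (SE, adjusted p = 0.0199) between the mutants. Without control replicate 3 the first became 0.80 (adjusted p = 0.00168) and the second −0.21, where the adjusted p of the first ran from 0.00168 to 0.749 over 19 alternatives. The adjusted p between the mutants became 0.0714 without *Fzd3* mutant replicate 1, 0.0566 without *Celsr3* mutant replicate 2 and 0.0847 with a replicate block, and ran from 2.66e-04 to 0.0847 over 19 alternatives (log2 0.81 to 1.12).

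Of the Robo receptors, *Robo2* and *Robo1* were abundant at 22.4 ± 1.12 and 17.2 ± 0.567 CPM per kb in controls, and *Robo4*, a receptor of endothelium, was at 0.741 ± 0.0837 CPM per kb. *Robo2* was 379.7, 399.9 and 362 CPM in controls, 422, 399.5 and 449 CPM in *Fzd3* mutants and 438, 411 and 399 CPM in *Celsr3* mutants. Mutants of both kinds tended to lie above controls, with overlap at the top of the control range. The difference from controls was log2 0.15 ± 0.05 (SE, adjusted p = 0.0544) in *Fzd3* mutants and log2 0.13 ± 0.05 (SE, adjusted p = 0.884) in *Celsr3* mutants. The adjusted p of the first became 0.0373 without *Fzd3* mutant replicate 2, 0.0488 without *Celsr3* mutant replicate 1, 0.0411 without control replicate 2, 0.0267 with libraries rescaled to the same total and 0.0467 with a robust fit, and ran from 0.0267 to 0.161 over 20 alternatives (log2 0.11 to 0.20).

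Netrins differed widely in level. The lipid-anchored netrin-G2, *Ntng2*, was at 23.5 ± 1.14 CPM per kb in controls, *Ntn4* at 4.13 ± 0.111, *Ntng1* at 0.589 ± 0.0700 and *Ntn1* at 0.253 ± 0.0314. *Ntng2* was 89.3, 93.5 and 98.4 CPM in controls, 103, 94.4 and 95.4 CPM in *Fzd3* mutants and 101, 103 and 87.9 CPM in *Celsr3* mutants, with all groups overlapping. *Ntn4*, a netrin of basement membranes, was 15.6, 15.7 and 15.0 CPM in controls, 13.8, 13.1 and 11.5 CPM in *Fzd3* mutants and 13.9, 14.9 and 16.3 CPM in *Celsr3* mutants. *Fzd3* mutants were lowest, by log2 −0.27 ± 0.09 (SE, adjusted p = 0.0381) against controls. The adjusted p became 0.0720 without *Fzd3* mutant replicate 2, 0.115 without *Fzd3* mutant replicate 3, 0.0541 without *Celsr3* mutant replicate 2, 0.0958 without control replicate 1, 0.102 without control replicate 2, 0.0526 without control replicate 3 and 0.0531 with libraries rescaled to the same total. It ran from 0.0355 to 0.115 over 20 alternatives (log2 −0.32 to −0.20).

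*Ntn1*, the gene of the secreted netrin that Dcc binds, was 1.43, 1.53 and 1.81 CPM in controls, 1.97, 2.31 and 1.53 CPM in *Fzd3* mutants and 1.42, 0.907 and 0.982 CPM in *Celsr3* mutants. Each *Celsr3* mutant value was below each control value, and *Fzd3* mutants overlapped with controls. The difference was log2 0.22 (adjusted p = 0.390) for *Fzd3* mutants and log2 −0.39 (adjusted p = 0.914) for *Celsr3* mutants against controls, and log2 0.61 ± 0.18 (SE, adjusted p = 0.0244) between them. The adjusted p of that last difference became 0.0732 without *Fzd3* mutant replicate 1, 0.0983 without *Fzd3* mutant replicate 2, 0.0881 without *Celsr3* mutant replicate 2, 0.0756 without *Celsr3* mutant replicate 4 and 0.135 with a replicate block, and ran from 0.0145 to 0.135 over 19 alternatives (log2 0.48 to 0.81).

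*Ntng1*, the gene of the lipid-anchored netrin-G1, was 4.60, 4.45 and 5.52 CPM in controls, 7.20, 6.22 and 5.17 CPM in *Fzd3* mutants and 4.31, 3.65 and 2.72 CPM in *Celsr3* mutants. The order of the groups was as for *Ntn1*, with log2 0.32 (adjusted p = 0.172) for *Fzd3* mutants and log2 −0.41 (adjusted p = 0.834) for *Celsr3* mutants against controls, and log2 0.73 ± 0.16 (SE, adjusted p = 0.00702) between the mutants. With a replicate block the last adjusted p was 0.0567, within a range from 0.00496 to 0.0567 over 19 alternatives. The summed interneuron markers given above were lower in *Celsr3* mutant replicates 2 and 4 than in any control. Between the mutants 3 of the 7 interneuron markers passed, all higher in *Fzd3* mutants. Of the 83 distinct genes of the marker lists, 39 passed there in either direction, against 29.6% of all genes. The count of 3 became 0 without *Fzd3* mutant replicate 1, *Celsr3* mutant replicate 2 or *Celsr3* mutant replicate 4, and with a replicate block, and 1 without *Fzd3* mutant replicate 2. The part of these markers' cells in the *Ntn1*, *Ntng1* and *Slit3* differences was not tested.

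Among the 5 netrin receptor genes that the rule covers, neogenin (*Neo1*) was the most abundant, at 49.0 ± 3.43 CPM per kb in controls. Neogenin also binds repulsive guidance molecules. *Unc5a* followed at 9.51 ± 0.118, *Dcc* at 5.50 ± 0.721, *Unc5b* at 2.62 ± 0.130 and *Unc5c* at 0.809 ± 0.0815 CPM per kb. The rule does not cover *Unc5d* and *Dscam*, which were at 114 ± 10.9 and 82.5 ± 6.64 CPM in controls, not divided by length. In that unit *Neo1* was at 427 ± 29.9 and *Dcc* at 72.4 ± 9.49 CPM. *Neo1* was 399, 422 and 459 CPM in controls, 471, 431 and 413 CPM in *Fzd3* mutants and 439, 426 and 393 CPM in *Celsr3* mutants, and all groups overlapped. *Unc5c* was 13.7, 16.4 and 16.4 CPM in controls, 35.5, 30.7 and 27.5 CPM in *Fzd3* mutants and 18.9, 17.6 and 13.4 CPM in *Celsr3* mutants. *Fzd3* mutants were all above the other 6 libraries, by log2 0.99 ± 0.13 (SE, adjusted p = 3.43e-04) against controls and log2 0.90 ± 0.13 (SE, adjusted p = 7.20e-04) against *Celsr3* mutants. Its level in *Fzd3* mutants was 1.63 ± 0.208 CPM per kb.

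*Unc5a* was 39.2, 39.6 and 40.2 CPM in controls, 50.7, 46.2 and 39.7 CPM in *Fzd3* mutants and 35.8, 37.5 and 36.5 CPM in *Celsr3* mutants. *Fzd3* mutant replicate 3 lay within the control range and the other *Fzd3* mutants above it, and all *Celsr3* mutants were below the controls. The difference was log2 0.31 ± 0.08 (SE, adjusted p = 0.0113) between the mutants and log2 0.19 ± 0.08 (SE, adjusted p = 0.0804) between *Fzd3* mutants and controls. Without *Fzd3* mutant replicate 3 the latter passed at log2 0.28, and its adjusted p, 0.00518 without *Fzd3* mutant replicate 3, ran from 0.00518 to 0.293 over 20 alternatives. *Dcc*, the gene of the attractive netrin receptor, was 72.4 ± 9.49 CPM in controls, 62.1 ± 8.19 CPM in *Fzd3* mutants and 66.7 ± 3.08 CPM in *Celsr3* mutants, with log2 −0.22 (adjusted p = 0.127) in *Fzd3* mutants. The adjusted p became 0.0290 without *Fzd3* mutant replicate 3 and 0.0319 without control replicate 3, at log2 −0.32 in both cases, and ran from 0.0290 to 0.399 over 20 alternatives.

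The Srgap genes encode GTPase-activating proteins that bend membranes. *Srgap3* was at 29.8 ± 1.51, *Srgap2* at 18.4 ± 0.517 and *Srgap1* at 16.2 ± 1.53 CPM per kb in controls. *Srgap2* was 232, 237 and 225 CPM in controls, 282, 273 and 273 CPM in *Fzd3* mutants and 232, 241 and 224 CPM in *Celsr3* mutants. *Fzd3* mutants were above all others, by log2 0.25 ± 0.04 (SE, adjusted p = 9.78e-04) against controls. *Srgap3* was 292, 309.6 and 280.1 CPM in controls, 332, 303 and 327 CPM in *Fzd3* mutants and 281, 299 and 268 CPM in *Celsr3* mutants. *Fzd3* mutant replicate 2 lay within the control range, and all *Fzd3* mutants were above all *Celsr3* mutants. It differed between the mutants by log2 0.18 ± 0.05 (SE, adjusted p = 0.0265), with log2 0.13 (adjusted p = 0.103) against controls. The adjusted p of the former became 0.101 without *Fzd3* mutant replicate 1, 0.0652 without *Fzd3* mutant replicate 3, 0.0609 without *Celsr3* mutant replicate 1, 0.103 without *Celsr3* mutant replicate 4, 0.172 with a replicate block and 0.0681 without a variance trend, and ran from 0.0180 to 0.172 over 20 alternatives (log2 0.14 to 0.22).

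**Figure D4:**
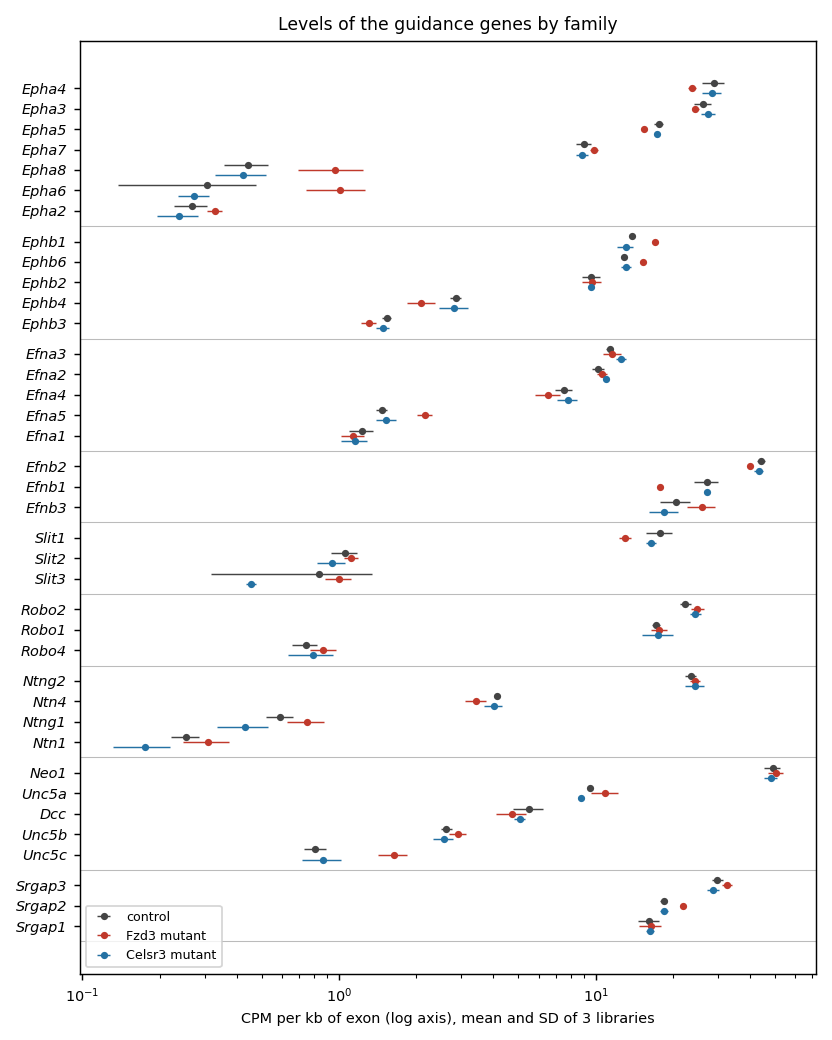
Mean CPM per kb of exon (log axis) with s.d. over 3 libraries for each of the 38 genes, grouped by family and ordered by the control level, in controls (grey), *Fzd3* mutants (red) and *Celsr3* mutants (blue). *Neo1* is the highest gene of the netrin receptors and *Ntn1* the lowest gene of the netrins.

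The other 14 genes passed in no comparison, though 6 of them, *Dcc* included, passed under some alternatives. Their log2 fold changes in *Fzd3* mutants against controls ran from −0.22 for *Ephb3* to 0.22 for *Epha2*, with adjusted p-values of 0.0766 to 0.948. In *Celsr3* mutants against controls they ran from −0.17 for *Slit2* to 0.11 for *Efna2*, with adjusted p-values of 0.993 to 1.00. Between the mutants they ran from −0.25 for *Efna4* to 0.34 for *Epha2*. The adjusted p of *Epha3* between the mutants, 0.0591, became 0.0326 without *Celsr3* mutant replicate 2, 0.0368 without control replicate 2, 0.0345 without control replicate 3 and 0.0356 with only the libraries compared in the fit, and ran from 0.0326 to 0.304 over 20 alternatives. That of *Epha7* became 0.0443 without *Celsr3* mutant replicate 1, 0.0444 without control replicate 3, 0.0493 with libraries rescaled to the same total and 0.0488 with only the libraries compared in the fit, and ran from 0.0443 to 0.221 over 20 alternatives. That of *Slit2* became 0.0475 without *Celsr3* mutant replicate 1, and ran from 0.0475 to 0.302 over 20 alternatives. Without a variance trend *Epha2* passed between the mutants, with an adjusted p that ran from 0.0465 to 0.294 over 19 alternatives, and *Ephb3* passed against controls, with one that ran from 0.0429 to 0.214 over 20 alternatives. *Ephb2*, at 121 ± 9.88 CPM in controls and 122 ± 10.6 CPM in *Fzd3* mutants, lies 93.4 kb from *Epha8* on chromosome 4 and did not pass. *Robo1* was 284 ± 9.35 CPM in controls, 292 ± 20.9 CPM in *Fzd3* mutants and 290.3 ± 40.7 CPM in *Celsr3* mutants.

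Exons of 10 of the 38 genes overlap an exon of another annotated gene, and 8 of those partners lie on the opposite strand. The use of strand in counting is not given in the sources used here, so reads of such partners cannot be told apart. The overlap was 2.17% of exon bases for *Ephb1*, 2.02% for *Epha6* and 0.617% for *Unc5c*, and up to 14.1% for *Efna3*.

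Further signalling genes of these pathways, some of them ligands or receptors, were taken from 4 lists with 77 genes in the table. In *Fzd3* mutants against controls 29 of 77 passed (37.7%), 16 higher and 13 lower, with a median log2 fold change of 0.01; the shares over all genes are those given above. Between the mutants 28 of 77 passed, 13 higher and 15 lower. That count of 28 became 18 without *Fzd3* mutant replicate 2 or without a variance trend, and 11 with a replicate block. In *Celsr3* mutants against controls limma called 0 of 77, with 2 at an unadjusted p under 0.05.

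Of 31 Eph and ephrin signalling genes, 5 were higher and 6 lower in *Fzd3* mutants. *Anks1b*, an adaptor, rose by log2 0.35 ± 0.05 (SE, adjusted p = 8.71e-04), *Grip2*, a scaffold that binds ephrin-B tails, by log2 0.41 ± 0.07 (SE, adjusted p = 0.00135), and the phosphatase gene *Ptpn11* differed by log2 −0.22 ± 0.04 (SE, adjusted p = 0.00151). Of 13 Slit and Robo genes, 4 were higher and 4 lower, and that count of 8 became 5 without *Fzd3* mutant replicate 2. *Nell2*, a secreted ligand of Robo3, rose by log2 0.40 ± 0.07 (SE, adjusted p = 0.00161) and *Ndfip1*, a ubiquitin ligase adaptor, by log2 0.26 ± 0.05 (SE, adjusted p = 0.00441), while *Flrt3*, a coreceptor of Robo1, differed by log2 −0.40 ± 0.08 (SE, adjusted p = 0.00388).

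Of 22 netrin, Dcc and Unc5 genes, 5 were higher and 2 lower, and that count of 7 became 4 without *Fzd3* mutant replicate 2 or control replicate 2. *Rgma*, the gene of a ligand of neogenin, was 54.9, 54.6 and 56.2 CPM in controls, 86.1, 79.9 and 77.3 CPM in *Fzd3* mutants and 67.8, 66.6 and 57.9 CPM in *Celsr3* mutants, and rose by log2 0.55 ± 0.06 (SE, adjusted p = 1.49e-04). *Ablim1*, an actin-binding protein, rose by log2 0.59 ± 0.08 (SE, adjusted p = 3.02e-04), and *Dock1*, an activator of Rac, differed by log2 −0.45 ± 0.07 (SE, adjusted p = 9.60e-04). Of 11 shared cytoskeletal effectors, 2 were higher and 1 lower. These were *Cdc42* at log2 0.16 ± 0.04 (SE, adjusted p = 0.0178), *Pak3* at log2 0.19 ± 0.05 (SE, adjusted p = 0.0199) and *Limk1* at log2 −0.20 ± 0.05 (SE, adjusted p = 0.0137). The adjusted p of *Cdc42* became 0.0546 without *Fzd3* mutant replicate 1, 0.0648 without *Fzd3* mutant replicate 2, 0.0632 without control replicate 2, 0.0506 with a replicate block and 0.0536 without a variance trend, within a range from 0.0132 to 0.0648 over 20 alternatives. That of *Pak3* became 0.0777 without *Fzd3* mutant replicate 1, 0.0514 without *Fzd3* mutant replicate 3, 0.0625 without control replicate 3, 0.0526 with a replicate block and 0.0540 without a variance trend, within a range from 0.0118 to 0.0777 over 20 alternatives, and that of *Limk1* 0.0589 without *Fzd3* mutant replicate 2 and 0.0564 without control replicate 2, within a range from 0.00949 to 0.0589 over 20 alternatives. The count of 3 effectors became 1 without *Fzd3* mutant replicate 1, *Fzd3* mutant replicate 2 or control replicate 2, and with a replicate block or without a variance trend.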

How the data were processed

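The authors deposited CPM values for 9 libraries, 3 per genotype, made by a sequencing company with Illumina methods; the submitters' processing notes name FastQC, TopHat, TopHat2, Bowtie, Cufflinks 2.1.1, edgeR 2.12 and the builds GRCm38 and GRCh37 (human). Strand use is not given in the sources used here. Genotypes and numbers were taken from the labels.

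Differences were fitted in R 4.3.3 with limma 3.58.1 on log2(CPM + 0.5) in 1 fit of all libraries (eBayes with a trend, two-sided), for genes with a mean of 0.5 CPM or more, and Benjamini-Hochberg adjusted over 14670 genes. The fit was also run on simulated reads drawn independently for each library, a simpler setting than these data. No result given here rests on that run. Exon lengths and positions came from GENCODE M21. Tables were made in Python 3.11.15.

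Per-library values are given for each gene past 0.05 in any comparison and for the gene highest per kb in controls in each family. Of each signalling list (Eph and ephrin, Slit and Robo, netrin, Dcc and Unc5, shared cytoskeletal effectors), the 3 genes with the smallest adjusted p in *Fzd3* mutants were named. *Dcc*, *Ephb2*, *Ephb3*, *Epha2*, *Epha3*, *Epha7*, *Slit2* and *Robo1* were named after their values were seen. Members and lists, including 14 marker lists, were chosen with earlier results of these data known. Alternatives changed the pseudocount, filter, scaling, model, block, length and libraries.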

Additional observations from a re-analysis of the deposited data

Results flagged for a closer look

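The differences of *Fzd3* and *Celsr3* mutants from controls were compared with each other in the limma fit of all 9 libraries. Of the 38 genes, 18 passed the adjusted threshold, against 29.6% of all genes. Genotype cannot be told apart from line or litter here. The log2 difference, *Fzd3* mutants minus *Celsr3* mutants, was above 0 for 13 genes. It was 1.56 for *Epha6*, 1.00 for *Slit3*, 1.00 for *Epha8*, 0.90 for *Unc5c*, 0.73 for *Ntng1* and 0.61 for *Ntn1*. Smaller positive differences were 0.48 for *Efnb3*, 0.47 for *Efna5*, 0.38 for *Ephb1*, 0.31 for *Unc5a*, 0.25 for *Srgap2*, 0.22 for *Ephb6* and 0.18 for *Srgap3*. The difference was below 0 for 5 genes, at −0.59 for *Efnb1*, −0.41 for *Ephb4*, −0.34 for *Slit1*, −0.26 for *Epha4* and −0.18 for *Epha5*. Control libraries cancel in this difference, and it equals the direct contrast of the mutants. With a replicate block, 11 of the 18 calls were lost. *Celsr3* mutant replicate 4 shares its number with no other library, so it added nothing to the contrast in that fit. The log2 difference was then 0.43 (adjusted p = 0.0567) for *Efna5*, 0.59 (adjusted p = 0.0567) for *Ntng1*, −0.32 (adjusted p = 0.0585) for *Slit1*, −0.18 (adjusted p = 0.0717) for *Epha5*, 0.81 (adjusted p = 0.0847) for *Slit3*, 0.19 (adjusted p = 0.0865) for *Ephb6*, 0.39 (adjusted p = 0.0909) for *Efnb3*, −0.27 (adjusted p = 0.123) for *Ephb4*, 0.58 (adjusted p = 0.135) for *Ntn1*, 0.15 (adjusted p = 0.172) for *Srgap3* and −0.18 (adjusted p = 0.179) for *Epha4*.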

How the results depend on the processing

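All 66 fold changes given singly kept their direction under the alternatives run. Of their values without 1 library, 536 kept their side of the threshold, 45 lost and 13 gained a call. Under the other settings 681 kept it, 23 lost and 7 gained a call. With a replicate block, the numbers of genes called among the 38 were 13 in *Fzd3* mutants against controls, 0 in *Celsr3* mutants against controls and 7 between the mutants, where 24.7%, 0.198% and 14.3% of all genes passed. In the same fit the number among the 77 signalling genes between the mutants was 11. That number was 18 in a fit without a variance trend and 18 to 30 without 1 library; the cause was not tested. Deviations from the group means, correlated across genes, gave −0.199 to −0.0696 for *Fzd3* mutants and controls of equal number and −0.0935 to 0.188 for their other pairs. Between the mutants the replicates 1 gave 0.192 and the replicates 2 −0.0799, and other pairs −0.158 to 0.112. For *Celsr3* mutants and controls, pairs of equal number gave −0.0132 and 0.0728, and other pairs −0.163 to 0.171. Without 1 library, 11 to 16 of the 38 genes passed in *Fzd3* mutants against controls, 0 in *Celsr3* mutants against controls and 13 to 20 between the mutants, where 20.2% to 29.4%, 0.266% to 0.361% and 20.3% to 30.5% of all genes passed. With a mean of at least 5 CPM, 30 of the 38 genes were tested, and 13 passed in each comparison that involves *Fzd3* mutants, with 32.5% of all genes in each. A fit with precision weights, chosen after seeing the data, called 15, 0 and 18. Tests of recovered reads with edgeR and DESeq2 were not run. Called numbers of the small lists moved by over 1.5 times in 97 cases. With the longest annotated transcript as length, the order within families changed among EphA receptors in each genotype, among EphB receptors in *Celsr3* mutants and among netrin receptors in *Fzd3* mutants. Depth limits values under the 3-read level of 0.0427 to 0.0752 CPM.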
